A study of Mus musculus with 2 samples.

Results

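Cd209a-positive conventional dendritic cells were described in 2 single-cell libraries of mouse liver. UMIs (unique molecular identifiers) stand for single captured transcripts. Cells were kept if they held 300 genes or more and if under 20% of their UMIs were mitochondrial, and members were then chosen by a rule on their own counts. A member had at least 1 UMI of Cd209a and at least 10 of H2-Ab1, none of Xcr1, Clec9a, Siglech, Cd79a, Cd3d, Cd3e or Cd3g, and under 2 of Fscn1. The rule found 182 cells among 18867 kept cells (of 19003 barcodes in all), with 98 in the library labelled PKM2FL/FL and 84 in the one labelled PKM2ΔMAC, shortened to FL/FL and ΔMAC. Both libraries held non-parenchymal liver cells, obtained through perfusion and a density gradient. All mice had been fed an MCD diet, a model of steatohepatitis, for 8 weeks. One library came from mice with the floxed PKM2 alleles and the other from mice labelled as lacking PKM2 in macrophages. For the driver of the deletion, the strain, sex and age, and the number of mice per library, no label says anything. With 1 library per genotype no difference between them has a replicate check, so no p-value is given, and each interval (95%, exact) covers counting error only.

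Conventional dendritic cells take up antigen, cut it into peptides and present these on MHC molecules to T cells. They grow from bone marrow precursors under Flt3 ligand and fall into a type 1 branch, with Xcr1 and Clec9a, and a type 2 branch, with Sirpa, Clec10a and, in part of the cells, Cd209a. Cd209a encodes a C-type lectin of the DC-SIGN family, which binds sugars on microbes and on other cells. Monocytes that enter inflamed tissue can also take on Cd209a and MHC class II, so both genes together do not by themselves separate the lineages.

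The members were deep cells, and the minimum counts in the rule favour such cells. Their median was 10198 UMIs and 2679 genes per cell in FL/FL, and 10002 UMIs and 2557 genes in ΔMAC, against 4528 and 3818 UMIs for all kept cells. UMIs per member ran from 1009 to 24261 in FL/FL and from 1152 to 17717 in ΔMAC. A pooled sum of 1013003 and 821553 UMIs stood behind the levels below, which are given in CPM (UMIs per 1000000 of that sum; 3′ tags are counted per transcript and not divided by length). No barcode was shared between the members of the libraries, although 17 were shared between all kept cells. A doublet caller marked 6 of the FL/FL members and 1 of the ΔMAC members.

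The label was checked against 5 markers, of which the rule had used Cd209a and H2-Ab1, and all 5 were present in both libraries. Members carried a median of 4 Cd209a UMIs in both libraries, with a highest value of 32 in FL/FL and 39 in ΔMAC. H2-Ab1, the beta chain of the class II molecule I-A, had a median of 76.5 and 108.5 UMIs. Flt3, the growth factor receptor of the lineage, was seen in 77 of 98 FL/FL cells and in 49 of 84 ΔMAC cells. Cst3, the protease inhibitor cystatin C, was found in 97 and 83 cells. Tnip3, which encodes an A20-binding inhibitor of NF-kB signalling, marked only 50 and 49 cells, so it divided the members in either library. As a measure of free RNA in the droplets, T cells (2 or more UMIs of the Cd3 genes) held a Cd209a UMI in 1.0% of 2496 FL/FL cells and 0.936% of 2031 ΔMAC cells. For Flt3 the T cell shares were 1.12% and 0.936%, and for Tnip3 1.80% and 1.23%, at median depths of 5658 and 5855 UMIs. The Cst3 share in T cells was higher, at 43.1% and 45.2%, at levels of 148 and 166 CPM against 2208 and 4779 CPM in the members. The plot of UMIs per cell shows these genes one cell at a time.

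**Figure D1:**
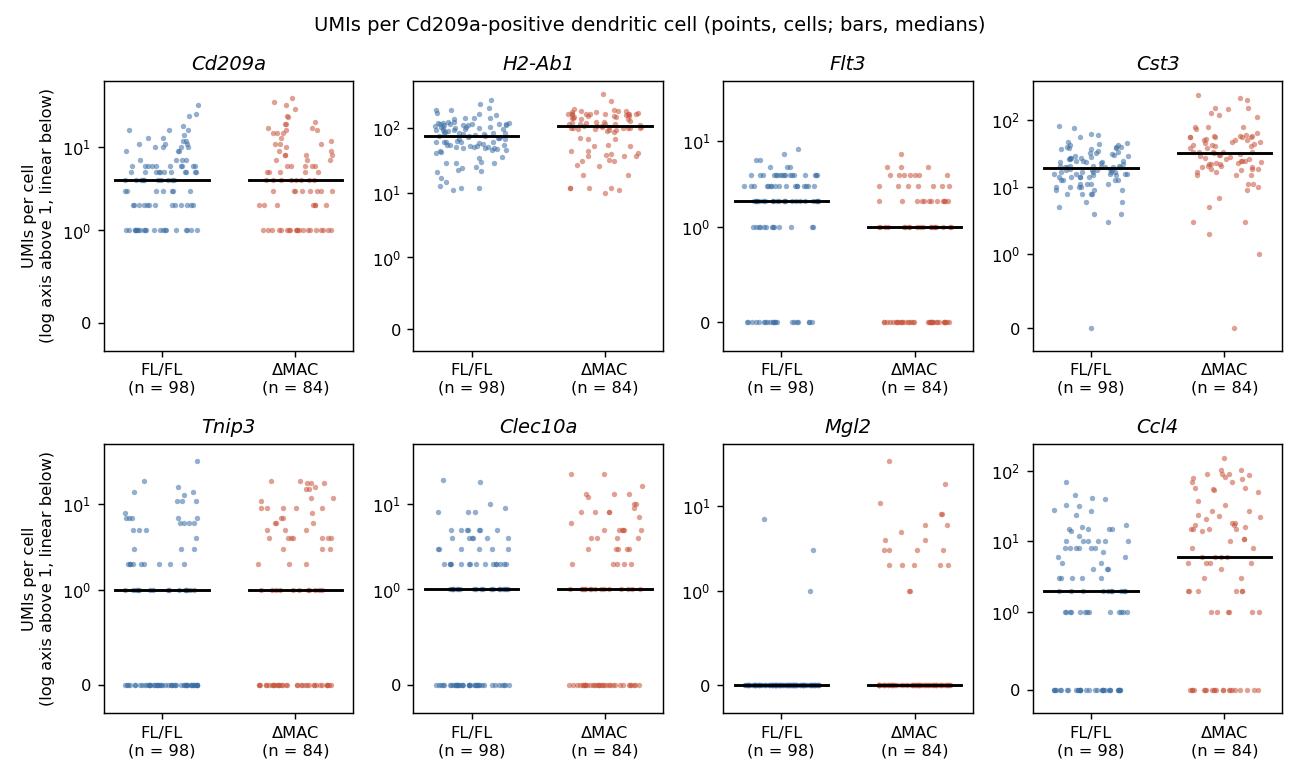
UMIs per cell (log axis above 1, linear below) of 8 genes in the 98 FL/FL and 84 ΔMAC members; each point is a cell and each bar the median of its library. Cd209a has the same median of 4 UMIs in both libraries, and Mgl2 is seen in 3 FL/FL cells against 21 ΔMAC cells.

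Many members lay close to the edge of the rule. A single Cd209a UMI was all that 21 FL/FL and 20 ΔMAC cells had, and 2 UMIs all that another 13 and 7 cells had. Cells that met every other condition but held no Cd209a UMI numbered 129 and 77. Their Flt3 level was 97.5 CPM in FL/FL and 64.3 CPM in ΔMAC, against 217 and 139 CPM in all members. Clec10a stood at 26.3 and 64.3 CPM outside and at 203 and 330 CPM inside. H2-Ab1 was at 10 to 14 UMIs in 4 and 6 members, while 2 and 5 cells with Cd209a had 5 to 9 UMIs of it, and 18 and 26 had fewer than 5. Xcr1 or Clec9a removed 23 and 12 cells with Cd209a, and Siglech, Cd79a or the Cd3 genes removed 66 and 50.

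Cd209a (ENSMUSG00000031494, mm10, chromosome 8, 3743397 to 3748984, minus strand) is 1 of 7 genes of its family that the files list. The other 6 lie within the same part of chromosome 8 and were sparse in these cells. Cd209d had 66 UMIs in 20 FL/FL cells and 29 UMIs in 12 ΔMAC cells. A single FL/FL cell held 24 of its UMIs. Cd209f and Cd209g had no UMI in any member. The family members are similar in sequence, so reads shared between them could be lost or split in the authors' counting.

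Beside Cd209a and H2-Ab1, which the rule used, the genes most enriched in the members over all other kept cells included Clec10a, Tnfsf9, Tnip3 and class II genes. These folds describe chosen cells and carry no test. Ranked by the lower of the libraries, Cd209a came first and Clec10a second, at 22.1-fold in FL/FL and 18.1-fold in ΔMAC. Clec10a encodes a lectin that binds galactose and N-acetylgalactosamine and is a common marker of type 2 dendritic cells. Tnfsf9, the ligand of the costimulatory receptor 4-1BB, was 13.9-fold and 22.1-fold enriched, at 506 and 691 CPM. Tnip3 followed at 13.9-fold and 31.5-fold. Among the 20 leading genes were, besides H2-Ab1, the class II pathway genes H2-DMb1, H2-Eb1, H2-Aa, Ifi30, Cd74 and H2-DMa.

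The class II genes cover each step of loading. H2-Aa, H2-Ab1 and H2-Eb1 encode the chains that hold the peptide, Cd74 the invariant chain that fills the groove on the way, H2-DMa and H2-DMb1 the exchange factor, and Ifi30 a reductase that opens disulphide bonds of the antigen. H2-DMb1 stood at 755 CPM in FL/FL and 741 CPM in ΔMAC, a 10.4-fold and 10.7-fold enrichment. Cd74 was at 20979 and 23759 CPM. The promoters of 3 of these genes are shown because class II genes are known to share the X and Y box module, where the Y box is an inverted CCAAT element. The sequences come from RefSeq (GRCm38.p6) and give the 80 bases before the start, with GATTGG on either strand in capitals.
H2-Aa, chr17:34287824-34287903, minus strand: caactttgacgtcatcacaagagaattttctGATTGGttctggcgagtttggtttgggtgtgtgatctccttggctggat
H2-Eb1, chr17:34305787-34305866, plus strand: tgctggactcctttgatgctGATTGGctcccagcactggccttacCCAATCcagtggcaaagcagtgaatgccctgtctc
H2-DMb1, chr17:34153111-34153190, plus strand: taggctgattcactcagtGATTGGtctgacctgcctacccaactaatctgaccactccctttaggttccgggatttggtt
GATTGG began 49, 60 and 62 bases before the start in these promoters. GENCODE places the H2-DMb1 start further upstream, at 34153072. Within 250 bases, 8 of the 11 listed promoters of the class II list held it on a strand, against 16.6% of 27025 genes. A match is a description of letters and not a binding site.

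The remaining leading genes were neither lectins nor class II genes. Ccl9, a chemokine of myeloid cells, stood at 484 CPM in FL/FL and 360.3 CPM in ΔMAC and was found in 81 and 65 cells. Plbd1, a phospholipase B domain protein, stood at 434 and 519 CPM. Pid1, a phosphotyrosine interaction domain protein, was near equal at 317 and 314 CPM. Id3, an inhibitor of E protein transcription factors, was at 1429 and 1193 CPM. Cbfa2t3, a corepressor of haematopoietic cells, was at 343 and 321 CPM. Ms4a6c, Pmaip1, Ifitm3 and Rassf4 complete the 20 genes, and all 20 were at least 5.71-fold enriched in both libraries.

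Set beside neighbouring cells of the same livers, the members held dendritic genes together with monocyte genes at lower levels. The neighbours were type 1 dendritic cells (2 or more UMIs of Xcr1 and Clec9a; 15 FL/FL and 28 ΔMAC cells), mature dendritic cells (2 or more Fscn1 UMIs; 15 and 8 cells) and classical monocytes (139 and 89 cells). The monocytes were chosen by Ly6c2 and by Chil3, F13a1, Fn1 and Vcan after the data were seen, since a gate on Lyz2 held 160 FL/FL cells and none in ΔMAC. By choice, the type 1 cells and the monocytes had no Cd209a UMI, and the monocytes had under 10 UMIs of H2-Ab1.

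Genes of the dendritic lineage were higher in the members than in these monocytes in both libraries. Cells with Cd209a or with 10 or more H2-Ab1 UMIs had been kept out of the monocytes, and the part of that choice was not tested. Itgax, which encodes CD11c, was at 130.3 and 123 CPM in the members and at 1.51 and 5.56 CPM in monocytes. Zbtb46, a transcription factor restricted to conventional dendritic cells among myeloid cells, was at 29.6 and 28 CPM in members, while monocytes held 1 UMI in FL/FL and none in ΔMAC (which allows up to 5.12 CPM). Flt3 was at 29.4 and 57.0 CPM in monocytes, below the members. Against type 1 dendritic cells the members differed in Sirpa, a type 2 marker, at 174 and 156 CPM with no UMI in either type 1 group (which allows up to 15.7 and 9.06 CPM). Irf8, the master factor of type 1 cells, was at 140.2 and 168 CPM in members and at 2321 and 1571 CPM in type 1 cells. Wdfy4, needed for cross-presentation, was at 86.9 and 74.3 CPM against 464 and 270.1 CPM. Cst3 was lower in the members than in type 1 cells too, at 2208 and 4779 CPM against 11401 and 13907 CPM.

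Clec10a set the members apart from each of these neighbours, and Klrd1 from all but the ΔMAC mature cells. Clec10a stayed at or below 15.3 CPM in monocytes, type 1 and mature cells. Klrd1, which encodes CD94, was at 355 and 418 CPM, against 80.9 and 51.6 CPM in type 1 cells and 24.9 and 22.2 CPM in monocytes. In mature cells it was at 126 and 291 CPM, with intervals that met in ΔMAC (190 to 426, against 374 to 464 in the members). T cells, which also express it, held 234 and 199 CPM.

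Mature cells had 3037 and 2426 CPM of Ccr7, the receptor for lymph node entry, and the members 41.5 and 73.0 CPM. Monocyte genes were present at reduced levels. Csf1r, the receptor for macrophage growth factor, was at 203 and 167 CPM in members against 527 and 436 CPM in monocytes, and Ccr2, which guides monocytes to tissue, at 482 and 334 CPM against 822 and 590.4 CPM. Ly6c2 was seen in 24 and 17 members. Which of the members descend from monocytes was not tested.

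**Figure D2:**
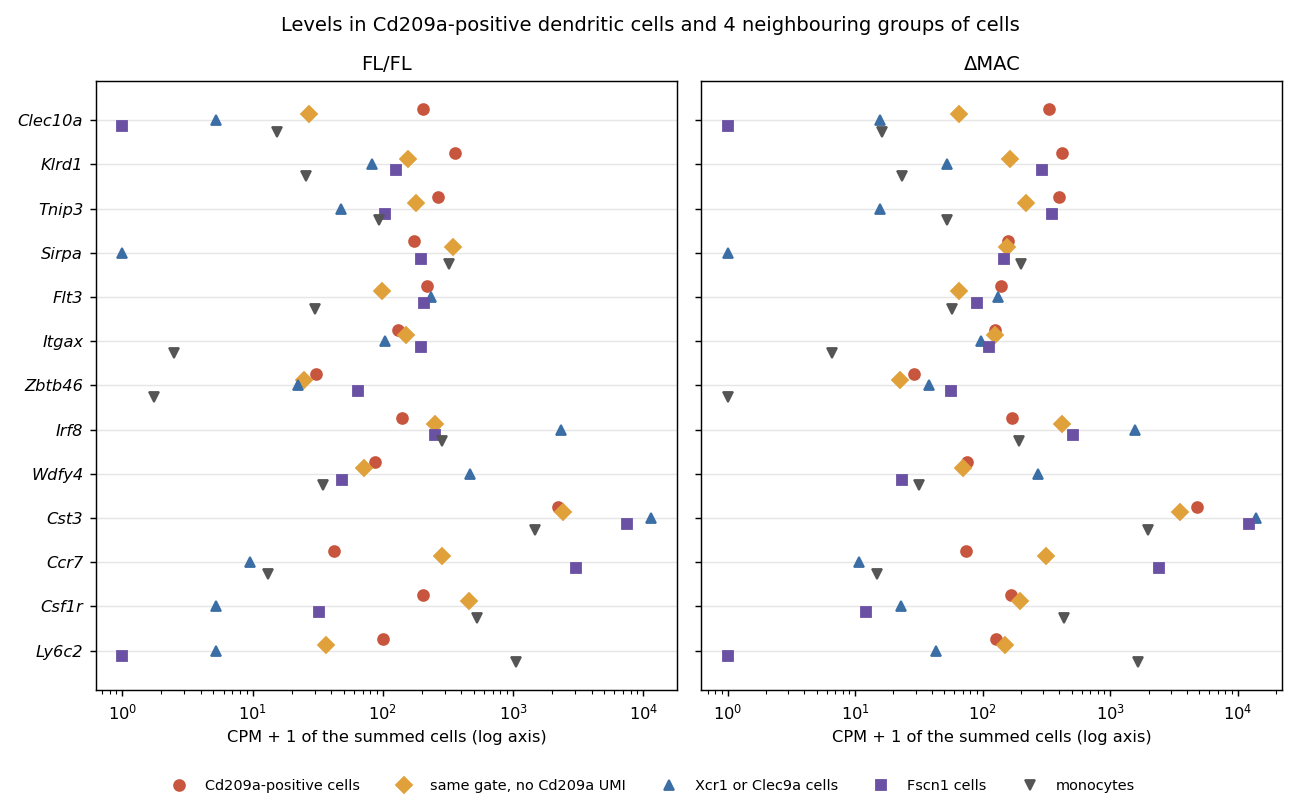
Levels (CPM plus 1 of the summed cells, log axis) of 13 genes in the members and 4 neighbouring groups, with FL/FL on the left and ΔMAC on the right; a symbol at 1 marks a group without a UMI. Clec10a of the members stands to the right of all 4 neighbours in both libraries, while Irf8 and Wdfy4 peak in the cells with Xcr1 or Clec9a.

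The members were not uniform, and one axis shared by both libraries ran along Tnip3. Cells with and without a Tnip3 UMI (50 and 48 in FL/FL, 49 and 35 in ΔMAC) were compared within each library, a split chosen after the data were seen. Their median depths were 10446 and 9351 UMIs in FL/FL and 10004 and 9999 UMIs in ΔMAC. Of 2072 genes with at least 50 UMIs in each library, 37 (1.79%) were 1.5-fold or more higher in the cells with Tnip3 in both libraries, and 8 (0.386%) were lower in both. Within the libraries taken singly, 5.23% of FL/FL genes and 11.1% of ΔMAC genes were higher, and 5.96% and 4.08% lower.

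Inflammatory targets led the higher genes. Cxcl10, a chemokine for T cells, was at 151 CPM with and 25.9 CPM without Tnip3 in FL/FL, and in ΔMAC all of its 74 UMIs lay in cells with Tnip3. Tnfaip3, which encodes A20, the partner of the Tnip proteins, was at 588 against 224 CPM in FL/FL and at 319 against 107 CPM in ΔMAC. Icam1, an adhesion molecule for T cells, differed by 1.63 (1.15 to 2.13) and 1.05 (0.52 to 1.61) on the log2 scale. Sdc4, Ptgs2, Cxcl16, Marcksl1 and Arl5c were the other leading genes. Among 17 genes of the NF-kB feedback list that reached 50 UMIs in each library, 6 were higher in FL/FL and 13 in ΔMAC, 4 in both, and none was lower in either. The median log2 ratio of the list was 0.42 in FL/FL and 0.78 in ΔMAC. These counts stand against the 5.23% and 11.1% of all genes. Nfkbia, the inhibitor that holds NF-kB in the cytoplasm, was at 2581 against 1595 CPM in FL/FL and at 2106 against 633 CPM in ΔMAC. Costimulation genes followed in part, with 3 of 9 higher in both libraries and medians of 0.55 and 0.83.

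Class II genes and Flt3 were near level along this axis, and other lineage genes differed between the libraries. Cd74 differed by 0.02 in FL/FL and -0.02 in ΔMAC on the log2 scale between cells with and without Tnip3, and Flt3 by -0.11 in FL/FL and 0.04 in ΔMAC. No member of the class II list reached 1.5-fold in the same direction in both libraries. None of 14 genes of the type 2 surface list was higher in both libraries, while in ΔMAC alone 4 were. Clec10a differed by 0.27 (-0.15 to 0.68) in FL/FL and by 0.84 (0.44 to 1.26) in ΔMAC, and Mgl2 by 1.61 (0.93 to 2.36) in ΔMAC. Mylip, a ubiquitin ligase, was lower in both, at -1.20 (-2.14 to -0.31) in FL/FL and -0.79 (-1.56 to -0.014) in ΔMAC.

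The promoters of Tnip3 itself and of Cxcl10 are shown because Tnip3 defined the split, Cxcl10 led its higher genes, and both are known NF-kB targets. Cxcl10 itself was seen in only 16 FL/FL and 12 ΔMAC members. A kappaB form, GGGA followed by any 4 bases and CC, was searched on both strands and is in capitals. The Tnip3 entry gives 80 bases and the Cxcl10 entry 180 bases before the start (RefSeq, GRCm38.p6).
Tnip3, chr6:65590318-65590397, plus strand: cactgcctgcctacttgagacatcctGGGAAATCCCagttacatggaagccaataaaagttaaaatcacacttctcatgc
Cxcl10, chr5:92348890-92349069, minus strand: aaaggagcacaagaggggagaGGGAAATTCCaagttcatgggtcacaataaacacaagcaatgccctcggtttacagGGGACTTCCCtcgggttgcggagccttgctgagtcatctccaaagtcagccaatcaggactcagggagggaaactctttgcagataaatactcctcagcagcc
The match began 54 bases before the start in Tnip3 and 159 and 103 bases before it in Cxcl10. The RefSeq start of Tnip3 lies inside the gene as GENCODE places it (chromosome 6, 65525313 to 65634040), and which start these cells use was not tested. Of the 16 NF-kB feedback genes with a listed promoter, 9 held the letters within 250 bases, against 19.7% of all 27025 genes.

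Flt3 marked a second division (77 cells with a UMI and 21 without in FL/FL, 49 and 35 in ΔMAC), again chosen with the values known. Of the 2072 genes, 36 (1.74%) were higher with Flt3 in both libraries and 24 (1.16%) lower. Within FL/FL alone 13.4% were higher and 6.43% lower, and within ΔMAC 8.62% and 7.97%. Cells without Flt3 were higher in Lilrb4a and Lilr4b, which encode immunoglobulin-like receptors, in Cstb, a cathepsin inhibitor, and in Sqstm1, the autophagy receptor p62. Lilrb4a stood at 126 CPM with and 302 CPM without Flt3 in FL/FL, and at 121 and 384 CPM in ΔMAC. Sqstm1 was at 164 and 345 CPM in FL/FL and at 176 and 502 CPM in ΔMAC. Genes higher with Flt3 in both included Cysltr1, a leukotriene receptor, and Clec4a2, an inhibitory lectin of dendritic cells. Cells without Flt3 were shallower, at medians of 8591 against 10439 UMIs in FL/FL and 9126 against 10655 UMIs in ΔMAC, and the part of this depth gap in the division was not tested.

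Cells with 3 or more Cd209a UMIs (64 of 98 and 57 of 84) differed from those with 1 or 2 in 24 genes (1.16%) that were higher in both libraries and 9 (0.434%) that were lower. Within FL/FL alone 7.64% of genes were higher and 4.86% lower, and within ΔMAC 9.36% and 6.49%. Median depths were 10446 UMIs with 3 or more and 9219.5 with 1 or 2 Cd209a UMIs in FL/FL, and 10006 and 9898 in ΔMAC. The part of depth in this split was not tested. Clec4b1, a C-type lectin of dendritic cells, was at 92.8 CPM against 28.8 CPM in FL/FL and at 186 against 54.4 CPM in ΔMAC. Batf, an AP-1 factor of activated immune cells, was at 209.8 against 44.8 CPM and at 213 against 93.2 CPM. Casp4 and the interferon target Isg15 were higher in both as well. Apoe was lower with more Cd209a, at 98.5 against 1015 CPM in FL/FL and 121 against 462 CPM in ΔMAC, and 1 FL/FL cell held 205 of its 386 UMIs. The members with few Cd209a UMIs also held more Irf8, at 202 against 113 CPM in FL/FL and 388 against 67.4 CPM in ΔMAC.

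The members formed a like share of both libraries, at 0.981% (0.797 to 1.19) of kept cells in FL/FL and 0.946% (0.755 to 1.17) in ΔMAC. The ratio, ΔMAC over FL/FL, was 0.965 (0.712 to 1.30). Kept cells with at least 2000 UMIs were also thinned to 2000 UMIs and the rule applied to the thinned counts. This used 9056 FL/FL and 7707 ΔMAC cells and left out 934 and 1170 shallower ones. The rule was then met by 49 (0.541%) and 61 (0.791%) cells, a ratio of 1.46, given without an interval. Fewer cells caught by the gradient and fewer cells in the liver cannot be told apart in such shares.

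Pkm, the gene that carries the deleted PKM2 exon, had 248 UMIs in FL/FL and 182 in ΔMAC. The levels were 245 (215 to 277) and 222 (191 to 256) CPM, a log2 ratio of -0.14, and 86 of 98 and 72 of 84 cells held the gene. The counts join the PKM1 and PKM2 forms and come from the 3′ end of the transcript, so they do not check the deletion. The ratio was farther from 1 in some neighbours. Pkm was at 404 and 143 CPM in cells of the same gate without Cd209a. It was at 651 and 349 CPM in monocytes, and at 307 and 182 CPM in type 1 dendritic cells. The direction was the same in T cells, where 67.5% of FL/FL and 55.8% of ΔMAC cells held Pkm. With T cells thinned to equal depth the shares were 34.8% and 26.4%, so the lower Pkm was not confined to myeloid cells. Whether the Pkm ratios differ between cell types beyond the spread between mice was not tested, nor was the part of the library.

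Of the 4260 genes that reached 50 UMIs in the members, 265 (6.22%) were 1.5-fold or more higher in ΔMAC members and 461 (10.8%) lower, with a median log2 ratio of -0.08. TMM scaling shifted all ratios by 0.07 and gave 332 higher and 359 lower, and a total without mitochondrial and ribosomal protein genes gave 226 and 547. The balance of higher and lower genes thus moved with the scaling, and single ratios are best read against the median of all genes. At 2-fold, 68 (1.6%) were higher and 83 (1.95%) lower.

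**Figure D3:**
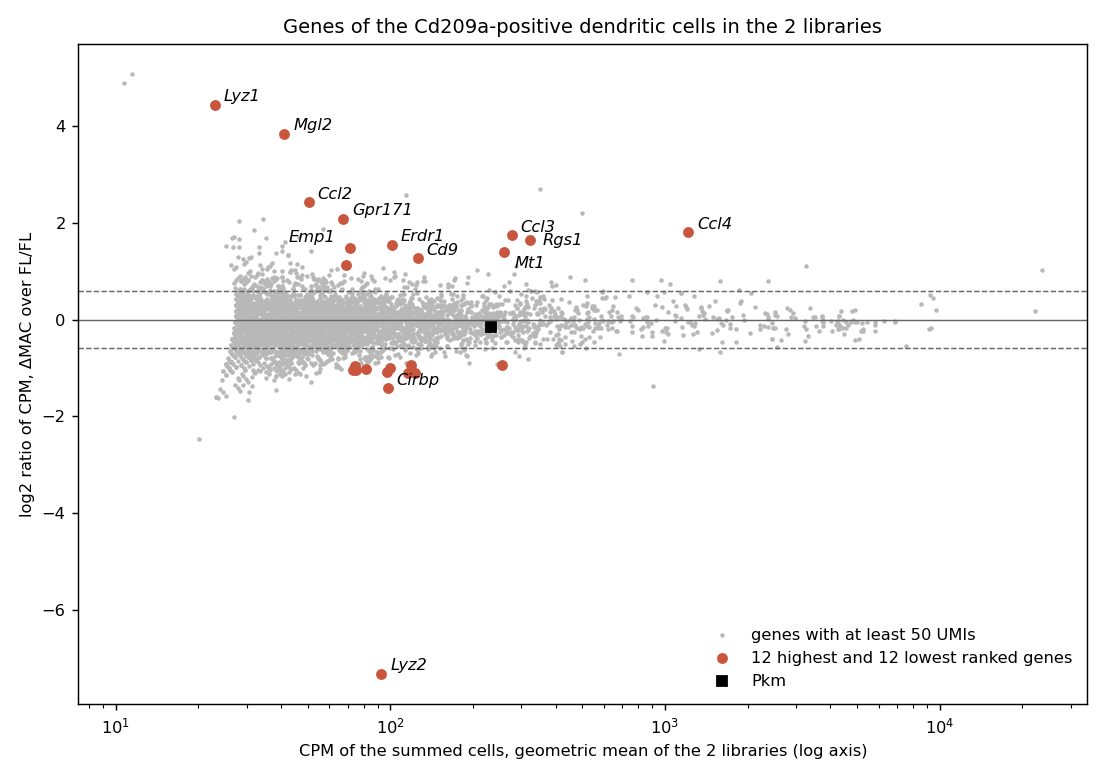
Log2 ratio of CPM (ΔMAC over FL/FL) against the geometric mean CPM of the libraries (log axis) for genes with at least 50 UMIs in the members. Lyz2 stands alone at -7.33, Lyz1, Mgl2 and Ccl2 lead the ranked genes that were higher (grey points above them were below 100 CPM in both libraries or were left out of the ranking), and Pkm lies near 0 at -0.14; dashed lines mark 1.5-fold.

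Lyz2, which encodes lysozyme and is a standard myeloid gene, set the members of the libraries apart most. In FL/FL it had 1194 UMIs in 80 of 98 cells, with a median of 3.5 and a highest value of 166 UMIs per cell. In ΔMAC it had 6 UMIs in 5 of 84 cells. The levels were 1179 (1113 to 1247) CPM and 7.30 (2.68 to 15.9) CPM, a ratio of 0.00620 (0.00227 to 0.0135). Other cells of the libraries showed the same direction: T cells, in which Lyz2 is read as free RNA, had 187 CPM in FL/FL and 0.465 CPM in ΔMAC, and the monocytes had 19687 and 29.2 CPM. The driver of the deletion is not named in the labels, and its part in this difference cannot be told apart from that of the library. Its neighbour Lyz1, a near copy in sequence, went the other way, with 5 UMIs in 4 cells against 88 UMIs in 16 cells, of which 1 cell held 31. Reads that fit both copies could be lost or moved between them in counting.

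Mgl2, Clec10a and Clec4b1, 3 lectins of the type 2 surface list, were higher in ΔMAC, while the lectin Cd209d was lower at 65.2 and 35.3 CPM. Mgl2, which encodes the galactose lectin CD301b, had 11 UMIs in 3 FL/FL cells and 128 UMIs in 21 ΔMAC cells. This is 10.9 against 156 CPM and a ratio of 14.3 (7.76 to 29.5). Thinned to 2000 UMIs, 2 of 95 and 15 of 81 cells held it (2.11% and 18.5%), and T cells held it in 0.0401% and 0.197% of cells. In ΔMAC 17 of the 21 cells with Mgl2 also held Clec10a. Clec10a was at 203 (177 to 233) and 330 (292 to 372) CPM, in 60 and 51 cells, a log2 ratio of 0.70. Clec4b1 was at 73.0 and 145 CPM, a log2 ratio of 0.99 (-0.056 in the 40 and 26 members free of markers of further lineages). Those members had no UMI of Ncr1, Klrb1c, S100a8, S100a9, Clec4f, Cd5l, Ms4a1 or Cd79b. This filter also drops cells with background UMIs, as S100a8 is read below. Cst3 was at 2208 (2118 to 2302) and 4779 (4630 to 4931) CPM, and its median per cell was 19.5 UMIs in FL/FL and 32.5 in ΔMAC, with ranges that overlapped. The gap was wide at the edge of the rule, with Cst3 at 1862 and 7319 CPM in members with a single Cd209a UMI. With 2 Cd209a UMIs it was at 2912 and 3889 CPM. Flt3 went against these genes, with 220 UMIs in FL/FL and 114 in ΔMAC, at 217 (189 to 248) and 139 (114 to 167) CPM. In all, 5 of 17 genes of the type 2 surface list were higher, 1 was lower and the median was 0.23, or -0.042 in the members free of further lineages' markers.

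Transcription factors of the lineage showed few differences, with 3 of 15 genes higher, none lower and a median of 0.04. Batf3, known for type 1 cells, was found in 23 FL/FL and 44 ΔMAC cells, at 31.6 and 84.0 CPM. Other markers of type 1 cells went both ways. Naaa was higher at 39.5 and 70.6 CPM, and Cadm1 lower at 86.9 and 46.3 CPM. Wdfy4, at 86.9 and 74.3 CPM, and Irf8, at 140 and 168 CPM, did not reach 1.5-fold. Id2, an inhibitor of E proteins that favours dendritic fate, was at 385 and 680 CPM, and Notch2 at 88.8 and 141 CPM. Irf4 and Zbtb46 differed by 0.25 and -0.08 on the log2 scale, with 26.7 and 31.6 CPM for Irf4. Growth factor receptors leaned lower in ΔMAC, with 4 of 14 lower, 1 higher and a median of -0.33. Besides Flt3 the lower genes were Csf2rb2 (-1.25), Ifnar2 (-0.71) and Tgfbr2 (-0.70, but 0.23 in members thinned to 2000 UMIs), and the higher gene was Tgfbr1 (1.26). Csf2rb2 encodes a receptor chain for interleukin 3 and had 44 and 15 UMIs. Csf2rb, the shared chain of the GM-CSF receptor, stood at 245 and 169 CPM and did not reach 1.5-fold.

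In the class II pathway 9 of 12 genes were within 1.5-fold, and Ciita was the lowest. Ciita, the transactivator of class II genes, had 173 UMIs in 70 FL/FL cells and 65 UMIs in 39 ΔMAC cells. Its level was 171 (146 to 198) against 79.1 (61.1 to 101) CPM, a ratio of 0.463 (0.343 to 0.620). Genes it is known to drive went both ways without reaching 1.5-fold. H2-Aa was at 9073 and 10390 CPM, H2-Eb1 at 7627 and 9564 CPM and Cd74 at 20979 and 23759 CPM, while H2-DMa was at 878 and 764 CPM and H2-DMb1 at 755 and 741 CPM. H2-Oa, a brake on peptide exchange, was lower at 197 and 124 CPM, and the protease Lgmn higher at 83.9 and 149 CPM. Of 12 genes of the list 1 was higher and 2 were lower, with a median of 0.08. None of 16 genes of MHC class I and peptide loading reached 1.5-fold in either direction, and their median was 0.06.

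Chemokines of the CC family carried a further large difference. Ccl4, a chemokine that attracts monocytes and T cells, had 658 UMIs in FL/FL and 1869 in ΔMAC. Per cell it ran from 0 over a median of 2 to a highest value of 70 UMIs in FL/FL and from 0 over 6 to 153 in ΔMAC, so the libraries overlapped. The levels were 649.6 (601 to 701) and 2275 (2173 to 2381) CPM, a log2 ratio of 1.81. Ccl3, its neighbour on chromosome 11, was at 151 and 505 CPM, a ratio of 3.34 (2.77 to 4.05). Ccl2, the ligand of Ccr2, had 22 UMIs in 6 cells against 96 UMIs in 18 cells. Ccl4 was also higher in ΔMAC in type 1 cells (643 and 1279 CPM), monocytes (591 and 1125 CPM) and the same gate without Cd209a (583 and 1522 CPM). T cells held it at 327 and 368 CPM. Ccl9 and Ccl5 were below 1.5-fold at -0.42 and -0.49, and the low Cxcl9 (48 and 7 UMIs) rested on 1 FL/FL cell with 45 UMIs (log2 0.30 without the highest cells). Of 11 chemokine genes 3 were higher and 2 lower, with a median of -0.058, which was 0.52 in the members free of further lineages' markers.

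Receptors for migration went both ways. Gpr183, the oxysterol receptor that positions dendritic cells, was at 46.4 and 102 CPM. Cxcr4, the receptor of Cxcl12, was at 258 and 393 CPM. Ccr7 was at 41.5 and 73.0 CPM, with 24 of its 60 ΔMAC UMIs in 1 cell. Ccr2 was lower but under the fold, at 482 (440 to 526) and 334 (295 to 375) CPM. Of 11 receptors 4 were higher and none lower by 1.5-fold, 5 lay below 0, and the median was 0.13.

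Sensing and activation genes had list medians near 0. Clec4n and Clec4e, which encode the fungal and glycolipid receptors Dectin-2 and Mincle, were higher at 24 against 51 and 17 against 39 UMIs. Among 11 pattern recognition receptors these 2 were higher and Tlr2 lower, with a median of -0.0041. NF-kB feedback genes held 1 higher and 3 lower genes of 20 and a median of -0.13. Tnfaip3 was lower, at 422 (382 to 463) against 239.8 CPM, and Ier3 was higher at 333 and 616 CPM. Tnip3 itself was at 266 and 398 CPM, just under the fold at 1.499. Costimulation genes held 2 higher and 2 lower of 14. Cd86, a main ligand of CD28, was at 130.3 and 127 CPM, and Cd40 at 50.3 and 53.6 CPM. Cytokine genes held 1 higher (Osm) and none lower of 6. Il1b, an inflammatory cytokine, was at 2404 and 2197 CPM. Of 25 interferon response genes Isg15 alone was 1.5-fold apart, at 113 and 62.1 CPM, a log2 ratio of -0.86 that was 0.024 in thinned members.

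Immediate early genes leaned higher, with 4 of 25 higher, none lower and a median of 0.20. Jun, a subunit of AP-1, was at 726 and 1285 CPM, and Egr2 had 15 and 40 UMIs. Ptgs2, which makes prostaglandins, went the other way at 181 and 84.0 CPM, with 40 of its 183 FL/FL UMIs in 1 cell, and a log2 ratio of 0.46 in the members free of further lineages' markers.

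Actin and adhesion genes had a median of 0.25 (0.12 in the members free of further lineages' markers, 0.063 with 2 or more Cd209a UMIs), with 6 of 26 higher and none lower. Tmsb4x, which encodes the actin-binding thymosin beta 4, was at 16409 and 33664 CPM, found in every member of both libraries. Cd9, a tetraspanin of the cell surface, was seen in 37 FL/FL and 56 ΔMAC cells, at 80.9 and 195 CPM, and Anxa1 was at 145 and 295 CPM.

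Stress and timing genes gave single large differences inside level groups. Cirbp, a cold-inducible RNA-binding protein, had 162 UMIs in 75 cells against 49 UMIs in 31 cells, a ratio of 0.373 (0.265 to 0.516). T cells showed the same direction, with Cirbp in 67.1% of FL/FL and 35.1% of ΔMAC cells. Fkbp5, a target of the glucocorticoid receptor, had 26 UMIs in 25 cells against 69 UMIs in 44 cells, a ratio of 3.27 (2.06 to 5.35). Their list held 2 higher and 1 lower of 11 genes and a median of -0.05. Mt1, a metallothionein that binds zinc, was at 159 and 422 CPM and seen in 37 and 56 cells. The other genes among the 12 lowest were Cnot6l, which shortens the poly(A) tails of mRNA, Chd7, a chromatin remodeller, Vps37b, a subunit of the ESCRT-I sorting complex, and Baz2a, Slfn5, Sertad2, Ypel3 and R3hdm4, at log2 ratios of -1.08 to -0.93. In thinned members R3hdm4 stood at 0.23. The other high genes were Rgs1 (1.66), which dampens G protein signals, Gpr171 (2.09), Erdr1 (1.55) and Emp1 (1.49).

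Few genes of the metabolic lists were 1.5-fold apart. Of 13 glycolysis genes Pfkfb3 and Slc16a3 were higher (Slc16a3 at 0.81, but -0.32 in the members free of further lineages' markers), none was lower and the median was -0.02. Ldha was at 327 and 358 CPM, and Gapdh at 977 and 819 CPM. The 11 mitochondrially encoded genes had a median of -0.31 with 10 below 0 and none at 1.5-fold (the median of all genes was -0.08), and the median share of mitochondrial UMIs per cell was 2.0% and 1.48%. The 38 nuclear genes of oxidative phosphorylation had a median of 0.16, with Uqcrb alone higher. Of 19 lysosome genes 2 were higher and 1 lower, and the median was -0.02. Among lipid genes Apoe and Cpt1a were lower, at -0.74 and -0.62. Both were above 0, at 1.02 and 0.25, in the members free of further lineages' markers. Abcg1, which exports cholesterol, was higher, with 24 and 56 UMIs.

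**Figure D4:**
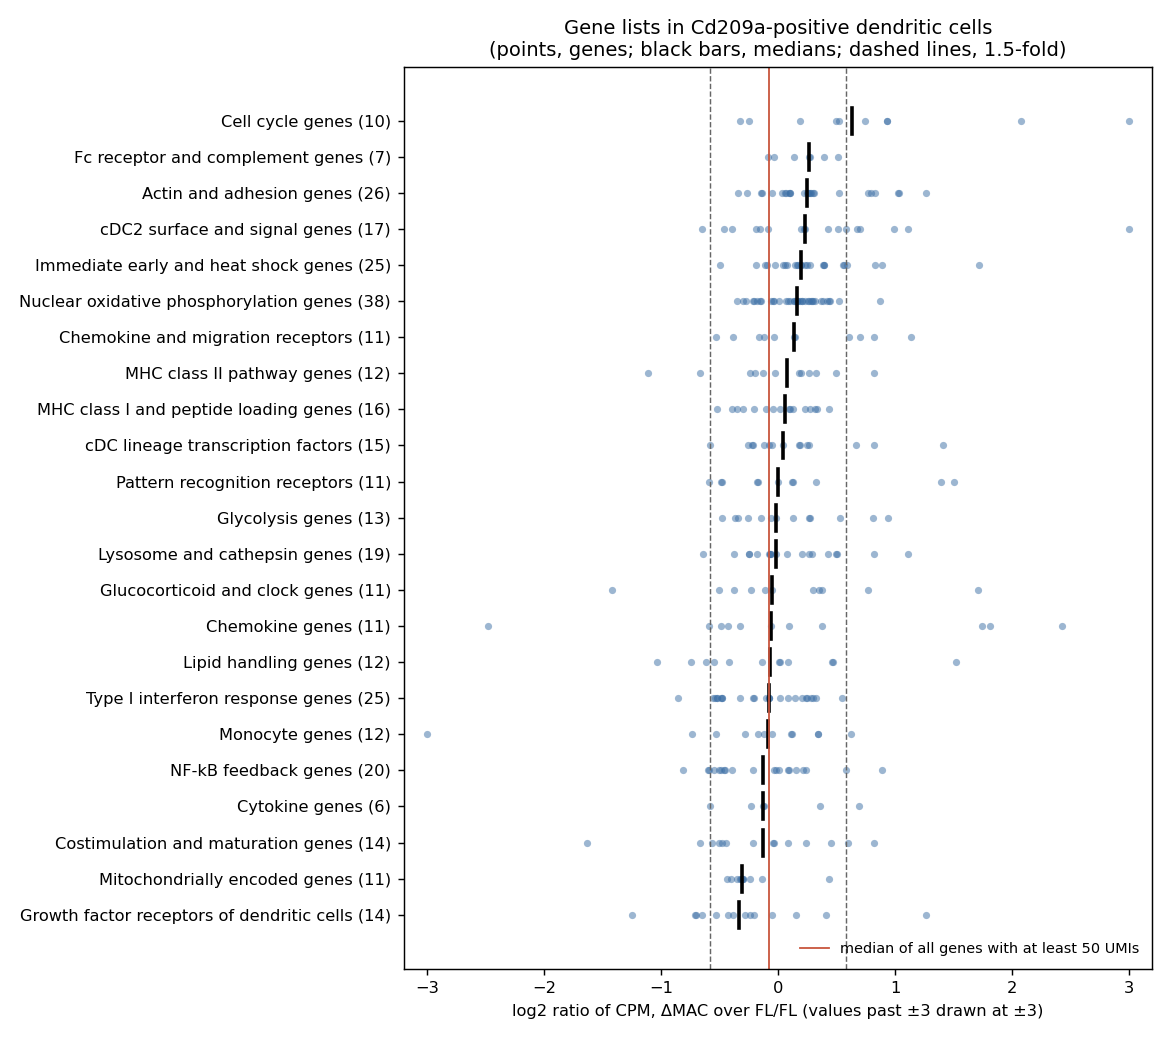
Log2 ratio of CPM (ΔMAC over FL/FL) of each gene with at least 50 UMIs (points) in the gene lists with 3 or more such genes, with list medians as black bars, the median of all genes as a red line and 1.5-fold as dashed lines. Cell cycle genes have the highest median at 0.63 and growth factor receptors the lowest at -0.33.

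Cell cycle genes had 5 of 10 higher, none lower and a median of 0.63. Ube2c, which acts in mitotic exit, had 2 UMIs in 2 cells against 48 UMIs in 4 cells. Members with 5 or more UMIs over the 10 genes of a cycling score numbered 3 of 98 (3.06%, 0.636 to 8.69) and 5 of 84 (5.95%, 1.96 to 13.3), and held 44.2% and 92.8% of those UMIs. In ΔMAC the UMIs of the score thus lay mostly in a handful of cells. Other genes of the list were spread more widely. Hmgb2 was seen in 74 and 67 cells, at a log2 ratio of 0.94, and Stmn1 in 12 and 20 cells, at 2.07. Ccnd1 and Ccnd3 lay below 0, at -0.33 and -0.24.

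Markers of most other cells were low, with exceptions that touch single results. Markers of other dendritic cells and of monocytes were present in most members. The 11 plasmacytoid markers summed to 515 CPM in FL/FL and 461 CPM in ΔMAC. The 10 type 1 markers summed to 389 and 445.5 CPM, and the 10 markers of mature cells to 265 and 215 CPM. Siglech, Xcr1 and Clec9a were at 0 by the rule. The 12 neutrophil markers summed to 499.5 CPM in FL/FL, with Camp at 0, and to 2387 CPM in ΔMAC, with Ngp and Camp at 0. S100a8 and S100a9 lay mostly in 4 cells: 1 FL/FL member held 316 of their 373 UMIs, and 3 ΔMAC members held 1531 of 1612. The share of members with an S100a8 UMI (20.4% and 32.1%) was that of T cells (19.7% and 32.2%), and is read as background. Without those 4 cells 250 genes were higher and 453 lower. The 13 markers of NK and innate lymphoid cells summed to 751 and 443 CPM, led by Ccl5 at 481 and 343 CPM.

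The 11 Kupffer cell markers summed to 94.8 CPM, with Clec4f, Cd5l and Folr2 at 0, and to 34.1 CPM, with Vsig4, Timd4, Marco, C1qa and Folr2 at 0. In FL/FL all 41 C1qb UMIs, all 11 C1qc UMIs and 22 of 23 C1qa UMIs lay in 1 cell for each gene. The 10 monocyte markers summed to 1990.1 and 1789 CPM, and only 2 FL/FL and 6 ΔMAC members held none of them. In the monocyte list Lyz2 and Fn1 were lower. The part of such cells in the differences above was not tested.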

How the data were processed

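Raw UMI counts were deposited by the authors as 1 matrix of genes by barcodes for each library, and per the file headers they come from Cell Ranger 6.0.0. The submitters' processing notes list mm10 as the build, and Seurat 4.3.0 without its use. No barcode held under 502 UMIs, so barcodes were filtered before deposition by a rule that is not stated. The files list 27998 genes.

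Cells with at least 300 genes and under 20% mitochondrial UMIs were kept (64 and 72 barcodes removed), and the rule was applied to their raw counts. Free RNA was not subtracted, and doublets called by Scrublet (scanpy 1.11.5, expected rate 0.08; 4.80% and 3.69% of kept cells) stayed in. UMIs were summed over the members of a library and scaled to 1000000. Ratios (ΔMAC over FL/FL) have exact conditional Poisson intervals, shares have Clopper-Pearson intervals, and a group at 0 is set to 3 counts for a bound. Genes that reached 50 UMIs in the members were counted by fold alone. Genes of the rule stay out of list summaries. Named genes were the 12 highest and 12 lowest ratios with at least 100 CPM (without mitochondrial, ribosomal and Gm genes and markers of other cells), up to 4 leading and 2 opposite genes per list, Pkm, and 20 genes by enrichment with at least 200 CPM. Other genes given to describe a list or a split were chosen with their values known. Some genes of the lists are not reported here.

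The members, the 24 lists and the tests were chosen with earlier results of these data known. Positions are from GENCODE and promoters from RefSeq. Python 3.11.15, scipy 1.17.1 and, for TMM scaling, edgeR 4.0.16 were used. The scripts' intervals and ratios were tested on simulated data. Alternatives were other cell filters, other limits of the rule, thinning to 2000 UMIs, other scalings and other gene minimums.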

Additional observations from a re-analysis of the deposited data

How the results depend on the processing

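The precision is set by 98 and 84 cells in 1 library per genotype. No paired analysis was possible because each genotype has 1 library. Over the alternatives, 11 counts or shares moved and 30 did not, 7 list medians moved and 335 did not, and of the named genes' values 16 reversed, 150 moved and 1732 did neither. The ratio of shares was 1.46 for the rule on cells thinned to 2000 UMIs. Counts higher and lower were 123 and 149 with further lineage genes at 0 (40 and 26 cells, 1634 genes), 56 and 87 with members thinned to 2000 UMIs (899 genes), 119 and 161 at 100 UMIs, 596 and 1130 at 20 UMIs, and 68 and 83 at a fold of 2. With 2 or more Cd209a UMIs the median of immediate early genes was 0.39 and that of actin genes 0.063. With further lineage genes at 0 the medians were -0.042 for type 2 surface genes, 0.52 for chemokines and 0.12 for actin genes. The mitochondrial median was -0.12 with thinned members and -0.17 as a mean over cells.

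The sign turned for Apoe (0.039) with 2 or more Cd209a UMIs. With further lineage genes at 0 it turned for Apoe (1.02), Clec4b1 (-0.056), Cpt1a (0.25), Cxcl2 (2.19), Mki67 (-0.68), Ptgs2 (0.46) and Slc16a3 (-0.32). With thinned members it turned for Ccr1 (-0.19), Cxcl9 (0.23), Isg15 (0.024), R3hdm4 (0.23) and Tgfbr2 (0.23). As a mean over cells it turned for Cxcl2 (0.11), without the highest cell of each gene for Cxcl9 (0.30), and without cells rich in S100a8 and S100a9 for Slc16a3 (-0.16). The last 2 alternatives and the monocyte gate were chosen after the data were seen. Fewer cells or fewer UMIs enter most of these settings; beyond that, the cause was not tested.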

Other observations

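Flt3 was held by 77 of 98 FL/FL and 49 of 84 ΔMAC members in all. Of the 24 FL/FL members with a Ly6c2 UMI, 17 also held Flt3, and of the 17 in ΔMAC, 9 did. These counts lie close to those shares of all members.

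Fc receptor and complement genes, which had no list member 1.5-fold apart among 7, had a median log2 ratio of 0.26. Fcer1g, the signalling chain shared by Fc receptors, was at 1318 CPM in FL/FL and 1449 CPM in ΔMAC. Fcgr2b, the inhibitory receptor for IgG, was at 137 and 180 CPM, in 44 and 51 cells. Markers of lipid-associated macrophages were scarce, with 8 markers at 42.4 and 130 CPM in sum. Among them Mmp12, a macrophage elastase, had 2 UMIs in 2 FL/FL cells and 31 UMIs in 9 ΔMAC cells, of which 1 cell held 21. Trem2 had 2 and 5 UMIs.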
